A study of Mus musculus
Mus spretus with 18 samples.

Results

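Lung and spleen of adult F1 hybrid mice were compared at the level of single exons and of whole genes. The 2 lung and 2 spleen libraries, 4 of the 18 RNA-seq libraries in the series, made up the comparison. All 4 came from females aged 8 weeks, born to a C57BL/6J mother and a SPRET/EiJ father, the mother's strain being the common laboratory mouse and the father's a wild-derived line of Mus spretus. The animals were untreated, whole organs were taken from 2 mice, and lung and spleen were read to the same read length. Skipped exon events were kept if they lay on an autosome and were covered by 20 or more junction reads in each of the 4 libraries. This gave 19675 events, covering 17924 exons of 7559 genes, out of 47780 autosomal events listed for lung or spleen and 100197 events listed for any organ or embryonic stem cells (ESC). Gene expression was followed in 17104 genes with a mean of at least 1 TPM (a share of transcripts, corrected for gene length and scaled to the same total in every library) over the 4 libraries.

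The lung is built around thin alveolar epithelium, ciliated and secretory airway epithelium and a dense capillary bed. The spleen filters blood through its red pulp, where macrophages take up old red cells, and holds B and T lymphocytes in its white pulp. In mice it also makes red cells and platelets. Many genes active in both organs can make more than one mRNA by including or skipping an internal exon, and such exons often lie in proteins of the cytoskeleton, of cell junctions and of membrane traffic. The inclusion of an exon is expressed here as percent spliced in (PSI), the share of transcripts that include it, on a scale from 0 to 1. An event was called if the adjusted p in a quasi-binomial model was under 0.05 and the difference in PSI was at least 0.1.

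The libraries held between 62175924 and 76239886 junction reads, and an event had a median of between 671 and 741 reads per library. The lowest count of an event among the 4 libraries had a median of 472 reads over all fitted events. Over the events not near a PSI of 0 or 1 this median was 159 reads, so that counting error weighed more there. The PSI values of replicates were correlated across the 4715 events that were not near 0 or 1, with r = 0.961 in lung and r = 0.951 in spleen. Spleen library 2 stood apart from spleen library 1 in blood-forming cells. The summed level of 12 erythroid genes was 680 TPM in spleen library 1 and 2187 TPM in spleen library 2, that of 12 proliferation genes was 356 and 792 TPM, and immunoglobulin genes took up 8.75% and 18.7% of all TPM. Without spleen library 2 the counts of called events given next were 338 and 204, and those of called genes 3920 and 4100. Both organs have been described as rich in leukocytes. The summed level of 12 leukocyte genes (such as Ptprc and Coro1a) was 529 and 590 TPM in the lung libraries and 6783 and 5015 TPM in the spleen libraries, whereas the other organs and ESC ranged between 52.0 and 155 TPM. The lung thus lay above every other organ measured but far below the spleen.

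Inclusion differed between the organs for a small part of the events, and more of these exons were included in the lung than in the spleen. 330 events (1.68% of those fitted) had higher inclusion in lung and 209 (1.06%) in spleen, 539 (2.74%) in all, which fell on 521 exons of 422 genes. Most events, 14960 (76.0%), had a PSI above 0.9 in all 4 libraries or below 0.1 in all 4. All called events lay among the 4715 others, of which they made up 11.4%, but an event that differs by 0.1 or more leaves these limits, so this share follows in part from the differences themselves. The calls depended on the test: with the replicate number as a block 34 and 9 events were called, and with limma on the logit of PSI 73 and 20. An exon can also be listed with other neighbouring exons, as a further event. Of 101 called exons with more than 1 fitted event, 15 were called in all of them, 86 had an event that was not called, and 0 were called in both directions. The median absolute difference of the called events was 0.213 where lung was higher and 0.191 where spleen was higher, and 38 events differed by 0.5 or more, 32 of them higher in lung. The replicates of one organ lay entirely to one side of those of the other in 538 of the 539 called events, against 37.4% of all fitted events. A further 773 events differed by at least 0.1 without being called, and they were not told apart from the replicate spread. 16 genes held called exons in both directions. These are bulk tissues, so that fewer cells of a type and less RNA per cell cannot be told apart, and an exon difference can lie between cell types or within one.

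**Figure D1:**
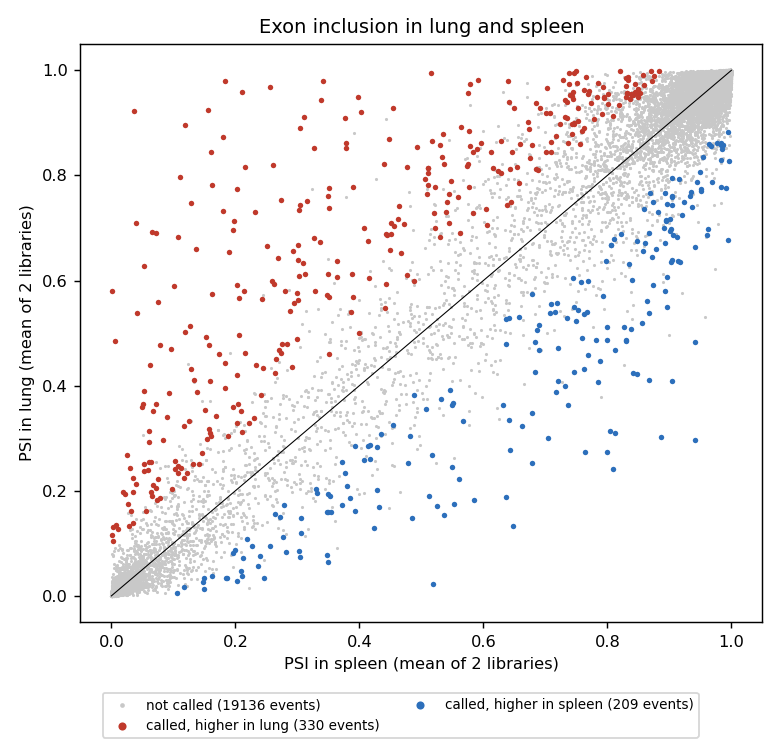
PSI of the 19675 fitted events, with the mean of the 2 spleen libraries on the horizontal and the mean of the 2 lung libraries on the vertical axis. Each point is an event, the diagonal marks equal inclusion, and the 330 events called higher in lung (red) and 209 called higher in spleen (blue) lie off it, with most other events (grey) crowded at PSI 0 or 1.

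Among the exons with the widest differences toward lung were several in proteins that shape the actin cytoskeleton. An 87-bp exon of Abi1 (chr2:22950184-22950270, mm10, minus strand), an adaptor of the WAVE complex that starts branched actin networks, had the widest difference. Its PSI was 0.883 and 0.909 in the lung libraries and 0.113 and 0.126 in the spleen libraries, a difference of 0.777 ± 0.0143 (SE, adjusted p = 7.13e-19 in the quasi-binomial model). In a further event of the same exon PSI was 0.823 and 0.810 in lung and 0.216 and 0.215 in spleen. The exon was thus used by most Abi1 transcripts in lung and by few in spleen, while the level of the gene was not called as different, at 54.1 and 54.0 TPM in lung and 58.8 and 58.0 TPM in spleen. Fmnl3, a formin that lengthens actin filaments, showed the same pattern in a 100-bp exon (chr15:99318918-99319017), with a PSI of 0.923 and 0.926 in lung and 0.146 and 0.165 in spleen. A 27-bp exon of a second formin, Diap1, was included at 0.739 and 0.756 in lung and at 0.112 and 0.144 in spleen. Neither Fmnl3 nor Diap1 was called as differing in expression.

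Other proteins that bind actin or tie it to membranes followed. A 48-bp exon of Myo9b, a myosin motor with a signalling domain, had a PSI of 0.696 and 0.689 in lung and of 0.0677 and 0.0622 in spleen. Utrn encodes utrophin, which links actin to the dystroglycan complex, and its 39-bp exon (chr10:12415451-12415489) was at 0.915 and 0.906 in lung and at 0.274 and 0.348 in spleen. In Cd97 (Adgre5), an adhesion receptor of leukocytes and other cells, a 135-bp exon (chr8:83731903-83732037) was included at 0.798 and 0.796 in lung and at 0.100 and 0.123 in spleen (adjusted p = 1.65e-22), and in a further event at 0.934 and 0.922 in lung and 0.425 and 0.484 in spleen. The lung values lay far above the spleen values in each of these genes, and the gap was many times wider than that between replicates. Outside the cytoskeleton, a 24-bp exon of Uggt1, a sensor of glycoprotein folding in the endoplasmic reticulum, differed by 0.618 ± 0.0305, a 51-bp exon of Uap1, which makes the sugar donor UDP-N-acetylglucosamine, by 0.575 ± 0.0224, and an 85-bp exon of Ccser2 by 0.571 ± 0.0511.

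The remaining pair of these exons lay in genes that are strongly expressed in the heart or in red cells. A 9-bp exon of Tnnt2, cardiac troponin T (chr1:135850379-135850387), had a PSI of 0.592 and 0.569 in lung and of 0.00197 and 0 in spleen, and of 0.839 in heart. Tnnt2 was expressed at 287 and 229 TPM in lung, 31.1 and 12.4 TPM in spleen and 17772 and 17701 TPM in heart. In mice, cardiac muscle extends into the walls of the pulmonary veins. Other cardiac genes, looked up after the Tnnt2 values were seen, were present in lung too. Myl7, the atrial myosin light chain, stood at 598 and 455 TPM in lung and 1.87 and 2.11 TPM in spleen, and Myh6 at 167 and 127 TPM in lung and 0.0831 and 0.0692 TPM in spleen. A 125-bp exon of Ank1, the ankyrin that anchors spectrin in red cells, was included at 0.727 and 0.692 in lung and at 0.0368 and 0.0421 in spleen, and at 0.975 in heart. In a further event of the same exon PSI was 0.975 and 0.985 in lung and 0.333 and 0.348 in spleen. That event had as few as 28 reads in a library. The level of Ank1 was 68.3 and 62.6 TPM in heart. Ank1 was low in lung, at 1.66 and 1.46 TPM, and unequal between the spleen libraries, at 3.60 and 17.4 TPM, whereas the PSI values of the spleen libraries were close to each other. The part of cardiac muscle in these exons was not tested.

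The exons with the widest differences toward spleen included some of an immune receptor, of transcription and chromatin factors and of signalling proteins. The widest was that of a 57-bp exon of Fcgr2b, the inhibitory IgG receptor of B cells and myeloid cells (chr1:170963409-170963465, minus strand). Its PSI was 0.238 and 0.245 in lung and 0.822 and 0.796 in spleen, a difference of -0.568 ± 0.0136 (lung minus spleen, adjusted p = 4.21e-12 in the quasi-binomial model). Fcgr2b expression was also higher in spleen, at 73.7 and 61.0 TPM against 12.4 and 14.7 TPM. A 93-bp exon of Tcf7, a transcription factor of T cells (chr11:52258853-52258945), was included at 0.263 and 0.283 in lung and at 0.743 and 0.784 in spleen. Arhgef1, a guanine nucleotide exchange factor abundant in blood cells, carried an 832-bp cassette (chr7:24918520-24919351) at 0.413 and 0.410 in lung and 0.8997 and 0.835 in spleen. In Rcsd1, which binds the actin capping protein CapZ, a 90-bp exon was at 0.429 and 0.417 in lung and at 0.841 and 0.855 in spleen. All 4 of these genes were called higher in spleen in expression as well.

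Spleen-high exons were also found in genes that were more active in lung. Postn encodes the matrix protein periostin and stood at 256 and 279 TPM in lung and 7.71 and 8.95 TPM in spleen. Its 81-bp exon (chr3:54380412-54380492) was nearly absent from lung, with a PSI of 0.0258 and 0.0210, and was included at 0.454 and 0.585 in spleen. A 285-bp exon of Ceacam1, an adhesion molecule of epithelia and leukocytes, was at 0.145 and 0.123 in lung and 0.706 and 0.588 in spleen. The others differed by between 0.379 and 0.525 and lay in Phkb (a subunit of phosphorylase kinase), Pbrm1 (a subunit of a chromatin remodelling complex), Lrch3, Terf2 (a telomere binding protein), Pfkfb2 (a regulator of glycolysis) and Serpina3f. Serpina3f belongs to a cluster of near-identical protease inhibitor genes whose reads may be divided among copies, and its difference over all reads, -0.382, was not seen among allelic reads, where it was -0.0461 on the C57BL/6J and 0 on the SPRET/EiJ allele. The C57BL/6J allele included the exon at 0.939 and 0.968 in lung and at 1 in both spleen libraries, and the SPRET/EiJ allele at 0 in all 4. With the alleles this far apart, PSI over all reads also depends on the share of reads from each allele. Neither that share nor the division of reads among copies was tested. The Pbrm1 exon was included at 0.310 and 0.316 in lung and 0.776 and 0.832 in spleen in the event named here, but in a deeper event of the same exon it was at 0.226 and 0.292 in lung and 0.302 and 0.276 in spleen, which was not called. The Terf2 exon had as few as 52 reads in a library. Without lung library 2 its difference was -0.376 and it was no longer called. With the replicate block only Tcf7 and Rcsd1 of the 12 exons toward spleen kept their call, and with limma on the logit of PSI the exons of Phkb, Terf2 and Pfkfb2 lost theirs.

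**Figure D2:**
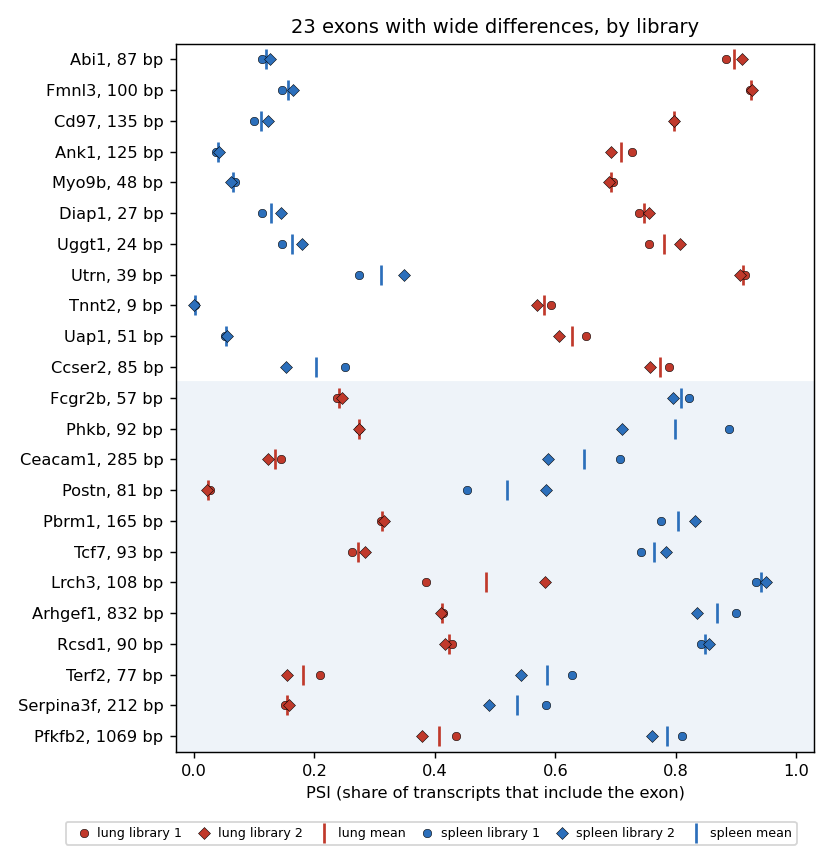
PSI (horizontal axis, share of transcripts) of 11 exons with the widest differences toward lung (upper, white) and 12 toward spleen (lower, shaded), in each library. Circles are replicate 1, diamonds replicate 2 and vertical bars the mean of the 2 libraries, lung in red and spleen in blue, and in no exon do the organs overlap.

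In genes known for isoforms that distinguish epithelial from mesenchymal cells, a larger share of events was called than over all fitted events. Of 57 such genes, 50 were measured with 213 events, of which 24 were called higher in lung and 9 higher in spleen (15.5%, against 2.74% of all events, and 34.0% against 11.4% of the events not near 0 or 1). The lymphoid and membrane traffic lists described below also lay above that background, at 21.3% and 32.1% of the events not near 0 or 1. The excess was thus not particular to this list. The lists were chosen with earlier results of these data known, and a gene can hold several events. In Nf2, the tumour suppressor merlin, a 45-bp exon (chr11:4780578-4780622) was included at 0.484 and 0.544 in lung and at 0.132 and 0.122 in spleen. A 33-bp exon of Numb, a cell fate determinant that also guides endocytosis, was at 0.461 and 0.492 in lung and at 0.156 and 0.159 in spleen. An 84-bp exon of the Golgi protein Golim4 was at 0.903 and 0.939 in lung and 0.438 and 0.367 in spleen. The Golim4 and Nf2 exons differed by 0.518 ± 0.0400 and 0.387 ± 0.0301, and lung was the higher organ in every library. Each exon had a further event with a PSI of 0.863 or more in all 4 libraries that was not called.

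Tropomyosin offered a pair of exons of equal length used in opposite ways. Tpm1 stabilises actin filaments, and of 2 neighbouring 126-bp exons the one at chr9:67047786-67047911 had a PSI of 0.605 and 0.594 in lung and of 0.219 and 0.298 in spleen. The one at chr9:67048124-67048249 had 0.138 and 0.157 in lung and 0.541 and 0.430 in spleen. One exon was therefore favoured in each organ (adjusted p = 3.24e-14 and 2.90e-15 in the quasi-binomial model). Heart, at 0.991 and 0.00928, lay beyond lung on both, as did cortex at 0.816 and 0.0593. The 2 ESC libraries lay far apart, at 0.676 and 0.958 on the first exon and at 0.161 and 0.0173 on the second. On the second exon ESC library 1 thus did not lie beyond lung.

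Several genes of the list went toward spleen. Fn1 encodes fibronectin, and a 270-bp exon (chr1:71603660-71603929) was included at 0.157 and 0.161 in lung and at 0.333 and 0.367 in spleen. A 130-bp exon of Itga6, a laminin receptor subunit, was at 0.484 and 0.539 in lung and 0.838 and 0.814 in spleen. A 63-bp exon of the polarity protein Scrib was at 0.543 and 0.537 in lung and 0.763 and 0.772 in spleen, and a 180-bp exon of Ctnnd1, the junction protein p120 catenin, at 0.514 and 0.576 in lung and 0.789 and 0.716 in spleen. Expression of Itga6 was not called as different, while Ctnnd1 was at 181 and 188 TPM in lung and 31.1 and 32.9 TPM in spleen. Other isoform genes of the list gave no call. A 207-bp event of Cd44 had a PSI of 0.0840 and 0.0934 in lung and 0.0216 and 0.0142 in spleen, below the required difference, and the 78-bp event of Fgfr2, at 0.733 and 0.745 in lung and 0.632 and 0.670 in spleen, did not pass the test.

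In genes known for lymphoid isoforms the calls went mostly toward spleen. Of 54 genes, 42 were measured with 119 events, 2 called higher in lung and 8 higher in spleen (8.40%, against 2.74% of all events), 3 of the 8 in Mbnl1. Ptprc encodes CD45, a phosphatase of all leukocytes whose variable exons differ among lymphocyte classes. A 147-bp exon (chr1:138120020-138120166) was included at 0.109 and 0.150 in lung and at 0.409 and 0.439 in spleen (adjusted p = 0.0112 in the quasi-binomial model, with as few as 46 reads in a library). The neighbouring 72-bp event, at 0.806 and 0.840 in lung and 0.958 and 0.939 in spleen, was not called. Besides Tcf7, an 84-bp exon of its relative Lef1 was higher in spleen, at 0.971 and 0.956 against 0.821 and 0.9004 in lung.

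Mbnl1, itself a splicing regulator, held 3 called events, all higher in spleen. Its 36-bp exon (chr3:60621423-60621458) was at 0.543 and 0.556 in lung and at 0.923 and 0.868 in spleen, a 95-bp exon at 0.794 and 0.781 against 0.959 and 0.931 (in a deeper event of this exon, at 0.843 and 0.876 against 0.903 and 0.908, no difference was called), and a 1049-bp exon at 0.204 and 0.243 against 0.565 and 0.557. The exceptions in the list were Picalm, a clathrin adaptor, and Fyn, a Src family kinase. A 24-bp exon of Picalm was at 0.570 and 0.563 in lung and at 0.216 and 0.194 in spleen, and a 165-bp exon of Fyn at 0.954 and 0.964 in lung and 0.686 and 0.802 in spleen. The B cell receptor genes Cd79a and Cd79b and the T cell gene Lat, all far higher in spleen in expression, had a PSI of 0.971 or more in all 4 libraries.

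Genes of membrane traffic and of the membrane skeleton made up the last list. Of 51 genes, 45 were measured with 254 events, 19 called higher in lung and 7 higher in spleen (10.2%, against 2.74% of all events). A 33-bp exon of Clip1, which caps growing microtubules, was at 0.627 and 0.752 in lung and 0.0512 and 0.0922 in spleen, with as few as 32 reads in a library. A 15-bp exon of Sptan1, non-erythroid spectrin, was at 0.487 and 0.517 in lung and 0.0886 and 0.148 in spleen, and a 60-bp exon of Sec16a, which organises exit from the endoplasmic reticulum, at 0.618 and 0.690 against 0.201 and 0.179. Lung was the higher organ in each of these. Toward spleen went a 33-bp exon of Dnm1l, the dynamin that divides mitochondria, at 0.404 and 0.323 in lung and 0.778 and 0.696 in spleen, and a 12-bp exon of Dnm2, a dynamin of endocytosis, at 0.663 and 0.682 against 0.851 and 0.869. Sec31a, a coat protein of the same exit route, had 4 called events, of which 2 overlapping cassettes were higher in spleen and 2 shorter exons higher in lung (each with a further event that was not called), and in the widest, a 291-bp cassette, PSI was 0.480 and 0.494 in lung and 0.805 and 0.759 in spleen.

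Called exons were more often very short and more often a multiple of 3 than the fitted exons. Micro-exons of at most 30 bp were 22 of 318 lung-high exons (6.92%) and 16 of 203 spleen-high exons (7.88%), against 2.25% of all fitted exons and 3.71% of those not near 0 or 1. Lengths that are a multiple of 3, which leave the reading frame intact where the exon is coding, were found in 60.7% and 59.1% of them, against 40.5% and 45.8%. Among the lung-high micro-exons, Nsfl1c, an adaptor of the membrane fusion ATPase p97, carried a 6-bp exon at 0.709 and 0.719 in lung and 0.209 and 0.186 in spleen. The 6-bp exon of Ap2m1, the cargo-binding subunit of the AP-2 clathrin adaptor, was at 0.596 and 0.589 in lung and 0.403 and 0.482 in spleen. Micro-exons are best known from the brain, and in 17 of the 22 the PSI in cortex (median 0.923) lay above both lung (median 0.593) and spleen (median 0.1997). Heart lay above both in 19 of 22. Among the longer lung-high exons, cortex lay above both in 124 of 266 and heart in 158 of 266. Of the spleen-high micro-exons, cortex was above both organs in 7 of 15 (46.7%) and heart in 4 of 14 (28.6%). For the longer spleen-high exons these counts were 50 of 175 (28.6%) and 27 of 176 (15.3%).

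Splicing regulators were themselves expressed unequally. Of 34 regulator genes tested, 10 were called higher in lung and 6 higher in spleen, where called means an adjusted p under 0.05 in limma and a difference of at least 1 on the log2 scale of TPM with 0.1 added. Over all 17104 tested genes, 23.7% were called higher in lung and 23.1% higher in spleen, so that the regulators lay near the background. Esrp1 and Esrp2, the epithelial splicing regulators, were at 13.7 and 14.1 TPM and at 28.0 and 30.4 TPM in lung, and at 0.0295 and 0.0266 TPM and at 0.419 and 0.293 TPM in spleen, with differences of 6.77 ± 0.18 and 6.02 ± 0.20 log2 units. Rbfox2, a regulator of muscle, epithelial and neuronal exons, was at 37.99 and 34.9 TPM in lung and 8.32 and 7.37 TPM in spleen. Mbnl2 and Qk were also called higher in lung, at 2.54- and 2.43-fold. On the side of spleen, Rbm38, an RNA-binding protein of erythroid cells, was at 130 and 110 TPM against 11.7 and 10.8 TPM in lung, and Ptbp3, a relative of the polypyrimidine tract binding protein found in blood cells, at 71.6 and 73.1 TPM against 25.5 and 23.2 TPM. Mbnl1, whose own exons differed, was at 153 TPM in both spleen libraries and at 74.6 TPM in both lung libraries. The highest-expressed regulators, Srsf5, Srsf6, Hnrnph1 and Ptbp1, did not reach the required difference. The counts depended on the scaling. After TPM were rescaled without haemoglobin, immunoglobulin and mitochondrial genes, 11 instead of 6 regulators were called higher in spleen. With median centring (each library set to the same median) it was 5, and 10 were higher in lung under both.

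Gene expression was tested with a different model and limit, so that its counts cannot be set against those of exons. 4057 genes (23.7%) were called higher in lung and 3947 (23.1%) higher in spleen, 46.8% in all, and the replicates of the organs did not overlap in 89.3% of tested genes. The median difference of all tested genes was -0.17 log2 units (lung minus spleen), and it was -0.36 after the rescaling named before, which left 3661 genes higher in lung and 4666 higher in spleen. That rescaling kept the secretory gene Scgb1a1, which stood at 167577 and 150414 TPM in lung. With median centring 4145 genes were higher in lung and 3806 higher in spleen. Epithelial genes formed the extreme of lung. All 12 airway genes and 13 of 14 alveolar genes were called higher in lung, with medians of 9.36 and 8.30 log2 units, as were all 15 genes of epithelial junctions and keratins, with a median of 6.02. Hopx and Ager, of the flat alveolar type I cells, stood at 939 and 956 TPM and at 2939 and 2720 TPM in lung, and at 19.4 and 15.1 TPM and 14.5 and 9.25 TPM in spleen. The exception was Napsa, an aspartic protease of alveolar type II cells, at 232 and 260 TPM in lung and 308 and 229 TPM in spleen.

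The supporting tissues leaned toward lung by less. Of 15 endothelial genes 14 were called higher in lung with a median of 3.89 log2 units. Cdh5, the cadherin of endothelial junctions, was at 771 and 841 TPM in lung and 40.5 and 36.0 TPM in spleen. Stab2, a scavenger receptor of sinusoidal endothelium, was the one endothelial gene called higher in spleen, at 18.98 and 25.95 TPM against 1.26 and 1.41 TPM in lung. Of 15 fibroblast and matrix genes 13 were higher in lung (median 1.82), among them Eln, elastin, at 448 and 647 TPM against 89.8 and 94.0 TPM. After the rescaling 12 of them were called. In smooth muscle only 4 of 9 genes were called, all higher in lung, and Tagln, at 395 and 402 TPM in lung and 530 and 398 TPM in spleen, and Acta2, at 476 and 446 TPM against 438 and 286 TPM, were not.

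Lymphoid and other blood lineages leaned toward spleen. All 15 B cell genes, all 15 T cell genes and 9 of 10 natural killer genes were called higher in spleen, with medians of -5.57, -3.78 and -1.82 log2 units. Cd79a, a signalling chain of the B cell receptor, was at 30.4 and 15.9 TPM in lung and 1511 and 907 TPM in spleen, and Cd3e, of the T cell receptor complex, at 7.93 and 9.19 TPM against 138 and 103 TPM. The gap was wide for B cells and narrower for natural killer cells. All 10 megakaryocyte genes, 10 of 12 neutrophil genes (9 after median centring) and 12 of 12 proliferation genes were also higher in spleen. The neutrophil genes did not move as one. The granule gene Ngp was at 0.257 and 0.341 TPM in lung and 124 and 191 TPM in spleen, and S100a9, a calcium-binding protein of neutrophils, at 61.6 and 103 TPM against 481 and 823 TPM. Ltf, another granule gene, was not called, at 46.5 and 93.9 TPM in lung and 39.0 and 64.3 TPM in spleen, and neither was Retnlg.

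Erythroid genes divided in a like way. Klf1, the master regulator of the red cell lineage, was at 0.204 and 0.223 TPM in lung and 26.6 and 114 TPM in spleen, and 9 of 12 erythroid genes were called higher in spleen. The genes still carried as RNA by late red cells were not. Hba-a1, an alpha globin gene with a near-identical copy, was at 686 and 485 TPM in lung and 295 and 1086 TPM in spleen, and Alas2, of haem synthesis, at 79.5 and 75.8 TPM against 52.2 and 144 TPM, so that the organs overlapped in both.

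Resident macrophages differed by organ. Of 10 red pulp macrophage genes 8 were called higher in spleen. They included Spic, the transcription factor of these cells, at 64.9 and 57.3 TPM against 0.377 and 0.436 TPM in lung, and Slc40a1, the iron exporter ferroportin, at 261 and 343 TPM against 12.3 and 11.1 TPM. Of 11 alveolar macrophage genes 9 were called higher in lung, such as Krt79 at 24.6 and 32.2 TPM against 0.0709 and 0.0343 TPM in spleen. Marco, a scavenger receptor that marks alveolar macrophages as well as macrophages of the splenic marginal zone, went the other way, at 22.9 and 35.7 TPM in lung and 320 and 299 TPM in spleen. Car4, counted in this list, is also a gene of alveolar capillaries and stood in the endothelial list too. Mesothelial and splenic stromal genes divided, with Msln among 3 called higher in lung and Cxcl13, a chemokine of B cell follicles, among 7 called higher in spleen, at 578 and 337 TPM against 3.72 and 6.83 TPM.

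**Figure D3:**
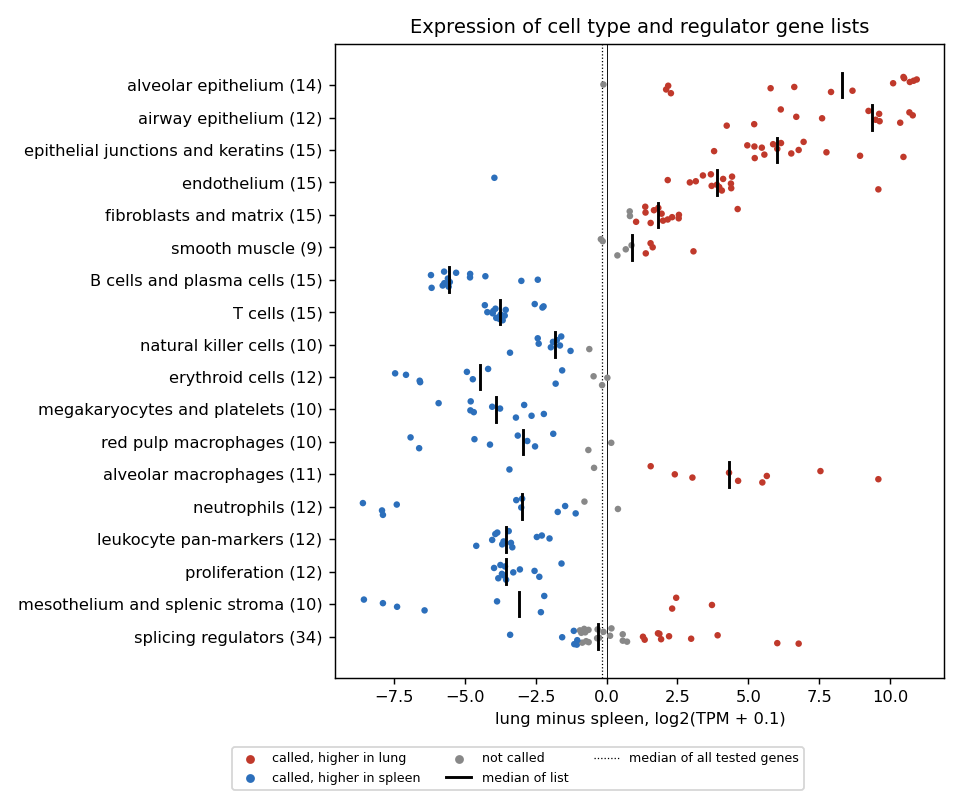
Difference between lung and spleen in log2(TPM + 0.1) (horizontal axis) for the members of 18 gene lists, with the number of tested genes in brackets. Each point is a gene, black bars are list medians and the dotted line is the median of all tested genes (-0.17); epithelial lists reach the highest values, and B cell, erythroid and megakaryocyte lists lie furthest toward spleen.

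Single genes differed by more than 10 log2 units. Among the 12 widest toward lung were surfactant genes and secretoglobins. Scgb1a1, the main secretory protein of club cells, was at 167577 and 150414 TPM in lung and at 106 and 74.4 TPM in spleen, and Sftpc, surfactant protein C, was at 31634 and 33030 TPM in lung and 20.4 and 13.1 TPM in spleen. These 12 genes (Sftpc, Sftpb, Scgb1a1, Sftpa1, Scgb3a2, Sec14l3, Cxcl15, Sftpd, Slc34a2, Cldn18, Ccdc153 and Bpifa1) ranged from 292 to 158996 TPM in lung. Since they were chosen for their difference, their ratios are given as a description. The mean of lung over spleen library 1 lay between 1344 and 1755, and over spleen library 2 between 1718 and 6626 with a median of 2116. Lung genes outside this choice had lower ratios, such as Hopx with 55.2 and Ager with 242, here taken from the difference in log2 of TPM with 0.1 added. In the other organs and ESC between 5 and 9 of the 12 genes were detected per library, with median ratios between 12361 and 224761 and lowest ratios between 8.36 (kidney) and 9365 (heart), so that at least 1 of these genes was higher in kidney, cortex, liver and ESC than in spleen. The source of these transcripts in the spleen libraries was not tested.

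Among the 12 genes widest toward spleen were transcription factors of splenic stroma and genes of red cell and granulocyte precursors. Tlx1, needed for the spleen to form, was at 47.7 and 43.2 TPM in spleen and 0.0244 and 0.0164 TPM in lung, and Nkx2-3, which patterns splenic vessels, at 27.1 and 21.7 TPM against 0.00493 and 0 TPM. Madcam1, an adhesion molecule of the marginal sinus, was at 28.4 and 17.1 TPM against 0.0293 and 0.0344 TPM. The erythroid genes Car1, Klf1, Cldn13 and Hemgn were between 2.71- and 6.02-fold higher in spleen library 2 than in spleen library 1, a wider gap than in the stromal genes, and both libraries lay far above lung. Ngp, Elane, Camp and Mpo, granule genes of neutrophil precursors, and Coch made up the rest.

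Genes with a called exon lacked an expression call about as often as all genes with a fitted event. Of 265 genes with an exon higher in lung, 66.4% were not called in expression, 23.0% were called higher in lung and 10.6% higher in spleen. Of 173 genes with an exon higher in spleen, 64.2% were not called, 13.9% were higher in lung and 21.97% higher in spleen. Over all 7537 genes with a fitted event and a tested level, the shares were 67.3%, 16.0% and 16.7%. The share of genes without an expression call was thus close to the background in both sets. The share called in the direction of the exon lay above it, at 23.0% against 16.0% for lung and 21.97% against 16.7% for spleen. The share called in the other direction lay below it. These departures were not tested.

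The other organs placed spleen, more often than lung, at the edge. These counts are of called events, so that an exon with several called events counts more than once. Of the 238 lung-high events measured in cortex, heart, kidney, liver and ESC as well, spleen lay outside the range of those 5 with lung inside it for 98 (41.2%), and the reverse held for 13 (5.46%). Of 158 spleen-high events the same counts were 53 (33.5%) and 21 (13.3%). Among lung-high events heart was nearer to lung than to spleen in 244 of 300, kidney in 192 of 314, liver in 175 of 269, cortex in 205 of 300 and ESC in 167 of 290. Among spleen-high events heart was nearer to lung in 135 of 196 and kidney in 118 of 203, whereas cortex with 102 of 195, liver with 93 of 186 and ESC with 87 of 174 were divided about evenly. The Abi1 exon, low in spleen, was at 0.954 in cortex, 0.838 in heart, 0.831 in kidney, 0.908 in liver and 0.985 in ESC. The Fcgr2b exon, high in spleen, was at 0.205 or below in the 4 others measured. Not every exon followed this order, and for example kidney lay nearer to spleen for the Diap1 exon (0.220), and kidney (0.115), liver (0.239) and ESC (0.350) lay nearer to spleen for the Ccser2 exon. Longer reads of heart, kidney and cortex had been trimmed by the authors to the length of the others, and the counts are given without a test.

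**Figure D4:**
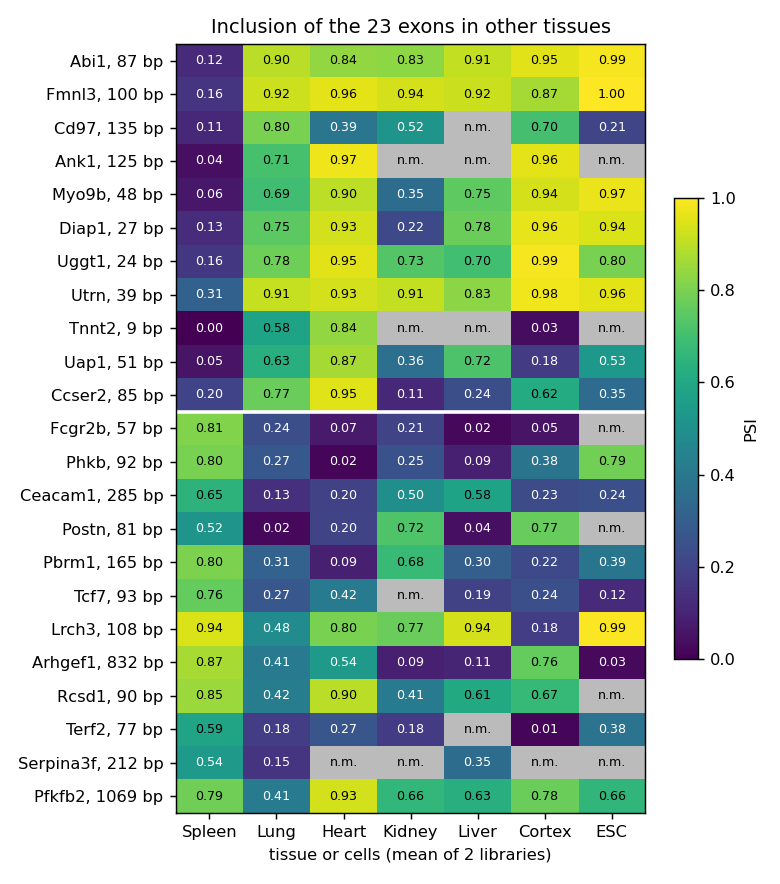
PSI of the same 23 exons in spleen, lung and 5 further tissues or cells, each the mean of 2 libraries, on a colour scale from 0 (dark) to 1 (yellow), with grey cells (n.m.) where the event was not listed or a library had fewer than 20 reads. In the upper 11 exons spleen is mostly the low column, as for Abi1 at 0.119 against 0.831 or more elsewhere, with Ccser2 in kidney lower still.

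In an F1 hybrid both alleles share one cell, so that each allele gives its own measurement of an organ difference. Reads were assigned to the C57BL/6J or SPRET/EiJ allele, and the order of the alleles was settled with imprinted genes: the allele taken as C57BL/6J held 99.8% of the Meg3 reads (expressed from the mother's copy) and 0.158% of the Sgce reads (expressed from the father's copy) in lung. Of 539 called events 387 had 20 or more reads on each allele in each library. The direction was the same on both alleles in 365 (94.3%), and the difference was at least 0.1 on both in 262 (67.7%). The median difference in the called direction was 0.197 on the C57BL/6J and 0.192 on the SPRET/EiJ allele. The Abi1 exon differed by 0.789 and 0.764, the Cd97 exon by 0.680 and 0.670 and the Tcf7 exon by -0.457 and -0.459. Other named exons were less alike on the alleles. The Rcsd1 exon differed by -0.423 on the C57BL/6J and -0.222 on the SPRET/EiJ allele, the Arhgef1 cassette by -0.226 and -0.436 and the Postn exon by -0.308 and -0.526. Where the alleles differ, a called difference over all reads can also come from unequal shares of reads from the alleles. A 99-bp exon of Apobec3 differed by 0.204 over all reads, but by -0.00382 on the C57BL/6J and -0.0502 on the SPRET/EiJ allele. Its PSI was 0.0105 or below on the C57BL/6J and 0.770 or more on the SPRET/EiJ allele in every library. The part of allelic shares in the calls was not tested. Allelic reads are part of the reads that made the calls, so the allelic comparison is no independent test.

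No event was called for an organ difference that itself differed between alleles. Over 12550 events, 0 were called for the interaction of organ and allele in the quasi-binomial model, with a smallest adjusted p of 0.620, and 372 (2.96%) had an unadjusted p under 0.05. Allelic depth limits this comparison, since in simulated data of the same depth only 42% of differences of 0.3 between alleles were recovered. These were set in the share of inclusion reads, not in PSI, and only in events with intermediate shares. The spread between replicates was that fitted by the model itself. The model compares the alleles on a logit scale, where equal shifts can be unequal gaps in PSI. It can call no event where 1 allele lay at 0 or 1 in all 4 libraries. A 76-bp exon of Vwa5a, at 1 on the SPRET/EiJ allele throughout, differed by 0.138 on the C57BL/6J allele. The widest gaps in PSI were not called. The 163-bp exon of Armc3 differed by 0.202 on the C57BL/6J and 0.720 on the SPRET/EiJ allele, and the 158-bp exon of Dnajb13 by 0.642 and 0.183. Their unadjusted p for the interaction in the quasi-binomial model was 0.000755 and 0.933. A 111-bp exon of Dst, a linker of cytoskeleton and junctions, differed by -0.0543 and 0.240 and had the smallest adjusted p.

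**Figure D5:**
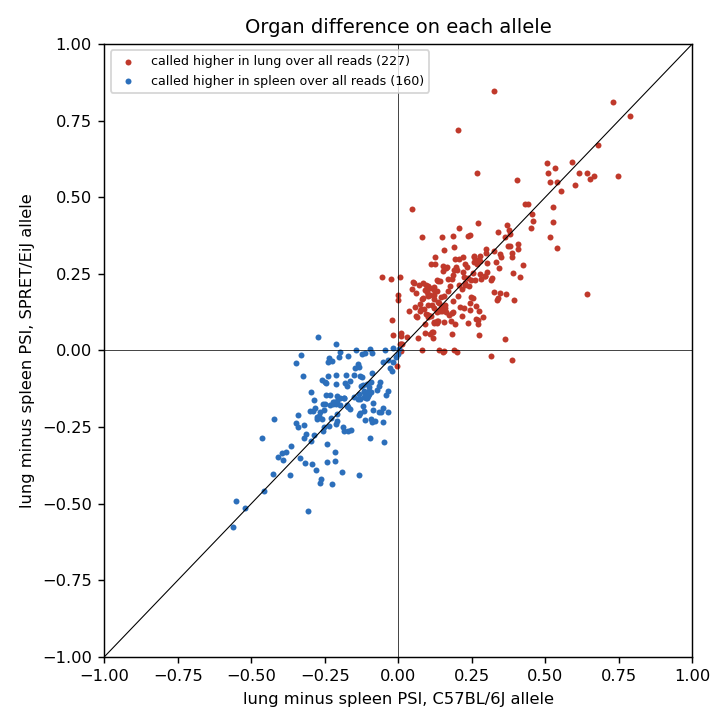
Lung minus spleen difference in PSI on the C57BL/6J allele (horizontal axis) and on the SPRET/EiJ allele (vertical axis) for the 387 called events with enough allelic reads, 227 called higher in lung (red) and 160 higher in spleen (blue). Each point is an event and the diagonal marks equal differences; 365 of the 387 have the called direction on both alleles.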

How the data were processed

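Members, gene lists and tests were chosen with earlier results of these data known. The authors aligned reads with HISAT2 2.0.1 (per the labels) against mm10 for the C57BL/6J allele and against a matching SPRET/EiJ sequence, and junction reads were counted with rMATS. The deposited tables list, per event and library, junction read counts that were not normalized, and the effective length of each form, a score written by rMATS. Replicates were read from their position in each list. The p-values, FDR and inclusion differences that the authors deposited were not used. The deposited expression values are in TPM, which the authors made from all aligned reads. rMATS lists an event only where it was found: 12257 events with 20 or more reads in both lung libraries were not in the spleen table, and 12066 the other way, and these are not analysed here.

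PSI was recomputed from counts divided by effective lengths. Inclusion against skipping was tested in a quasi-binomial model with dispersions of at least 1, moderated toward a depth trend with the squeezeVar method of limma 3.58.1 (R 4.3.3), without a block. Expression was tested with limma on log2(TPM + 0.1). Benjamini-Hochberg adjustment ran over all features, with calls at adjusted p under 0.05 and a difference of at least 0.1 in PSI or 1 in log2. SE is that of the difference of means of 2 libraries. With 2 libraries per organ the p-values rest on the spread within these samples only. For exons that spread was borrowed mostly from other events, since the prior held 28.6 degrees of freedom against 2 residual ones. Very small p-values thus lean on this prior. Named exons were the 12 widest called differences in each direction, 1 per gene, with 50 or more reads and no overlap, and for each gene of 3 lists the widest called event or, with none called, the deepest. 1 of the 12 exons toward lung is not reported here. Named genes were the 12 widest in each direction with at least 10 TPM, leaving out antigen receptor, haemoglobin and predicted genes, and the 4 highest of each list. Further list members, events and micro-exons were chosen after their values were seen. The tests were tried on simulated data: of exon differences of 0.1, 0.2, 0.3 and 0.4, 14%, 40%, 58% and 86% were recovered, with 2.94% false calls. Differences were set only in events of intermediate PSI in both organs. Every event was drawn at the prior dispersion that the model itself had fitted, so the share of false calls does not measure that of the real data. The 264 events with a lowest count of between 20 and 24 reads had a median absolute difference of 0.0613, and 4 of them were called. Python 3.11.15 was used for the other steps.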

Additional observations from a re-analysis of the deposited data

How the results depend on the processing

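Direction was kept by the 24 named exons and 24 named genes in each alternative that gave them a value, and the 24 genes kept their calls. With 1 event per exon the named events of Abi1, Cd97 and Pbrm1, and with a minimum of 100 reads those of Phkb and Terf2, were not tested. The counts of called events (330 higher in lung, 209 in spleen) were 73 and 20 with limma on the logit of PSI, 183 and 97 with a PSI limit of 0.2, and 34 and 9 with the replicate number as a block, which leaves 1 residual degree of freedom among samples. Under the replicate block 13 of the 24 named exons lost their call, and with limma 4. The organs came from 2 mice, but no source ties a number to a mouse, and same-numbered libraries deviated together only weakly (r = 0.183 for log2 TPM and 0.0328 for logit PSI), so the pairing stays an alternative. With each library left out in turn, the event counts ranged between 279 and 338 and between 184 and 206, and the gene counts between 3920 and 4217 and between 3787 and 4100. Without a TPM filter 5412 and 5155 genes were called, and with a mean of at least 5 TPM 2768 and 2854. The interaction of organ and allele gave 0 calls in all 6 alternatives. Read minimums, the omission of events near 0 or 1, the prior and 1 event per exon kept the event counts within 1.5 times. A planned negative-binomial test of junction counts was not run. Depth limits small exon differences and those between alleles.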
